A study of Homo sapiens with 2 samples.

Results

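The genes described here carry the epidermal growth factor receptor (EGFR) signal from ligand to early transcription. The set holds 43 named genes. It comprises EGF family ligands, their ERBB receptors, Eph receptors, feedback phosphatases with the Sprouty and SPRED proteins, RSK kinases, ETS factors and other outputs of ERK, the AP-1 transcription factors and early response genes. They were taken by name from the probe table, and 41 of them had a probe set that names 1 gene, out of 19775 such genes in all. No value is given for AREG or EGR2, for which the probe table used here names no probe set.

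The cells were HT-29, an established human colorectal adenocarcinoma line. They were transfected with a small interfering RNA, or siRNA, and harvested 72 h later. The baseline culture received siLuc, which targets firefly luciferase, and the other received siIFITM1, which targets IFITM1, an interferon-induced membrane protein. Neither an untransfected culture nor a second siRNA against IFITM1 was analysed here. Each siRNA was read on 1 array, so the spread between cultures is unknown, and every ratio below is a description of 2 arrays without a test.

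In background, EGF family ligands are shed from the cell surface and bind ERBB receptors, which activate RAS and then the RAF, MEK and ERK kinase cascade. ERK enters the nucleus and phosphorylates transcription factors that switch on early genes such as FOS and EGR1 within minutes. The same signal induces its own inhibitors, the dual-specificity phosphatases and the Sprouty and SPRED proteins, and in colorectal cancer cells this pathway supports proliferation.

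Ratios are log2 of the siIFITM1 signal over the siLuc signal. A gene is represented by its probe set with the highest mean log2 signal, called the main probe set. It passed the filter if that mean reached the median of all probe sets, a signal of 57.4, and it is called brighter above the 75th percentile, a signal of 393, and dimmer otherwise. Where several probe sets read one gene, their ratios differed with an SD of 0.193 for brighter and 0.496 for dimmer probe sets, which is the yardstick for single values. The yardstick covers variation within these arrays and not between cultures.

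The IFITM1 signal went from 640 to 237 under siIFITM1, 37.1% of baseline. The hybridisation controls, 18 probe sets, ranged from -0.13 to 0.05. Of 12 genes of colonic epithelium, 10 passed the filter, with siLuc signals from 2078 to 49185, while the intestinal transcription factor genes CDX1 and CDX2 were below it. Of 6 genes of blood cells, 4 passed, with ratios from -0.79 to 0.59, LYZ as the only brighter one, and PTPRC and CD3D were below the filter. Of 8 genes of fibroblasts and endothelium, 4 passed, none of them brighter, with ratios from -0.51 to 1.54. A culture is measured in bulk, so fewer expressing cells and less RNA per cell cannot be told apart.

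Taken as a set, the pathway genes were spread around 0 like other genes, with a few members apart in each direction. Of the 41 genes with a probe set, 39 passed the filter, 32 of them as brighter genes. Their median ratio was 0.03, against -0.02 over all 12225 genes that passed. Above 0 were 22 members and below 0 were 17, where 47.4% of all genes that passed were above 0 and 52.6% below. At least 2-fold higher with siIFITM1 was 1 member, RPS6KA2, against a background of 1.01% of all genes that passed. At least 2-fold lower was 1 member, BATF3, against 2.01%. Both were dimmer genes, of which 2.48% were 2-fold higher and 5.39% 2-fold lower. At 1.5-fold the members higher were RPS6KA2 and DUSP5, where the background was 4.18% of all genes and 1.86% of brighter genes. BATF3 alone was 1.5-fold lower, where the background was 7.34% of all genes and 1.77% of brighter genes.

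Among the 32 brighter members, 19 lay within 1 SD of the same-gene spread. The 7 above it were DUSP5, EPHA2, FOSL1, FOSL2, RPS6KA3, EGR1 and ATF3, which is 21.9% against 20.2% of all brighter genes. The 6 below it were SPRY4, ETV5, PHLDA1, FOS, HBEGF and DUSP1, which is 18.8% against 19.2%. These shares were close to the background, so the counts set the members apart in neither direction.

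**Figure D1:**
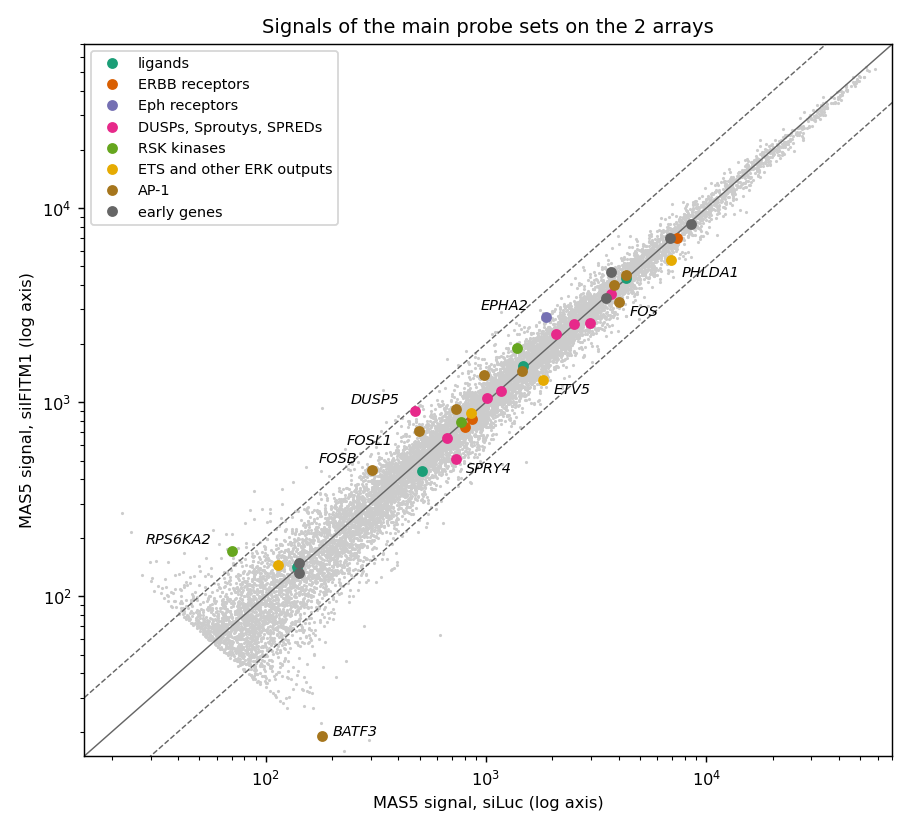
MAS5 signal on the siIFITM1 array against the siLuc array, both on log axes, for the 39 members that passed the filter (coloured by role) and all 12225 genes that passed (grey), 1 array each. The solid line marks equal signal and the dashed lines 2-fold. BATF3 lies below the lower dashed line, RPS6KA2 above the upper one, and the other members lie between them.

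Promoter sequences are shown for 4 members with a serum or cyclic AMP response motif in a window. Their main ratios lay beyond the yardstick for their signal class, brighter or dimmer. The serum response element core (CArG box) binds SRF, which works with ETS partners downstream of ERK, and the cyclic AMP response element (CRE) binds CREB and ATF proteins. Each stretch runs from 150 to 31 bases before the RefSeq gene start on GRCh38.p14, 5′ to 3′ on the gene's strand, with the motif in capitals. EGR1 was on the plus strand at chr5:138465329-138465448, RPS6KA2 on the minus strand at chr6:166862556-166862675, EPHA2 on the minus strand at chr1:16156100-16156219 and DUSP1 on the minus strand at chr5:172771226-172771345.
EGR1 (2 CArG boxes; ratio 0.34): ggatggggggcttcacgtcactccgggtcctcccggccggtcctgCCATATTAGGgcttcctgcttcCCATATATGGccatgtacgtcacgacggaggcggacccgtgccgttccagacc
RPS6KA2 (1 CArG box; ratio 1.29): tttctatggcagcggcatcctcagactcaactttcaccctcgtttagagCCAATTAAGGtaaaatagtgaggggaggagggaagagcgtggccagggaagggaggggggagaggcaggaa
EPHA2 (1 CRE; ratio 0.55): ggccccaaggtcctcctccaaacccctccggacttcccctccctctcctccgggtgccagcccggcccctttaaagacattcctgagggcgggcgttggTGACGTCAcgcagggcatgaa
DUSP1 (1 CRE; ratio -0.21): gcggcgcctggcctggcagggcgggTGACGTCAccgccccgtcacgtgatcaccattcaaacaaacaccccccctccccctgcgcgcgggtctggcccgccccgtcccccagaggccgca

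The table of RefSeq promoters, windows of 300 bases, held 49 windows for 34 of the 43 members. It had no entry for BATF3, DUSP4, DUSP5, EGR3, ERBB3, ETV4, ETV5, FOSL1 or IER3. Both strands were searched, and the motifs do not contain one another. A CArG box was found for EGR1, EGR2 and RPS6KA2 and in 1.29% of all 35116 windows. For RPS6KA2 it was in 1 of its 3 windows. TGACGTCA, the CRE, was found for AREG, DUSP1, EPHA2, JUND and VGF and in 1.85% of all windows. TGANTCA, the AP-1 motif, was found for EGFR, ERBB2, FOSL2 and SPRED2 and in 7.71%, and GCGNGGGCG, an EGR motif, for 10 members and in 9.43%. Counted by window like these shares, 3 of the 49 member windows held a CArG box, 5 a CRE, 4 an AP-1 motif and 10 an EGR motif. Members with a CRE lay on both sides of 0, with EPHA2 at 0.55, VGF at 0.36, JUND at 0.07 and DUSP1 at -0.21, while AREG had no value. A match describes the letters and was not tested as a binding site.

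The ligands showed little difference between the arrays, with a median of 0.02 over 4 genes. EREG, the epiregulin gene, read 4300 with siLuc and 4376 with siIFITM1 (0.03), and its second probe set was at -0.06. TGFA, which encodes transforming growth factor alpha, read 1474 and 1535 (0.06) at its main probe set. Its dimmer probe sets were higher at 0.62 and 0.37, so all 3 had the same sign. HBEGF, the heparin-binding ligand gene, was the ligand gene farthest from 0 at its main probe set. It read 513 and 442 (-0.22), and its other probe set past the filter was at -0.09. BTC, the betacellulin gene, was a dimmer gene and read 139 and 141 (0.02).

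The 3 ERBB receptor genes had main ratios just below 0, all within the yardstick. ERBB2, the receptor gene without a known ligand of its own, read 868 and 820 (-0.08), with a dimmer probe set at -0.56. ERBB3, whose receptor has a weak kinase and pairs with ERBB2, read 7338 and 6967 (-0.07), with its second brighter probe set at -0.03 and a dimmer one at 0.46. Another dimmer ERBB3 probe set was at -0.77, with its siIFITM1 signal of 51.9 under the filter floor. EGFR itself was not settled, because its probe sets disagreed by more than the yardstick.

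The main EGFR probe set, one with probes shared between transcripts, read 799 with siLuc and 745 with siIFITM1 (-0.10). The second brighter EGFR probe set read 378 and 823, a ratio of 1.12. Of the dimmer EGFR probe sets past the filter, 1 was at 0.29 and 1, whose siIFITM1 signal was under the filter floor, at -0.52. EGFR was thus near 0 at the main probe set and over 2-fold higher at the next. Which transcripts each probe set reads was not tested.

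Of the Eph receptor genes, which encode tyrosine kinase receptors for cell-bound ephrins, only EPHA2 passed the filter. EPHA2, whose transcription responds to ERK signalling, read 1869 with siLuc and 2731 with siIFITM1. Its ratio of 0.55 was beyond the yardstick of 0.193 and rested on 1 probe set. EPHA4 had 5 probe sets, all below the filter, and is given no ratio.

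The feedback genes had members beyond the yardstick on both sides of a median of -0.01 over 9 genes, all of them brighter. DUSP5, which encodes a nuclear phosphatase of ERK, read 477 with siLuc and 901 with siIFITM1. Its ratio of 0.92 was the highest among brighter members and rested on 1 probe set. DUSP6, the cytoplasmic ERK phosphatase gene, read 3703 and 3590 (-0.04), and its other probe sets were at -0.16 and -0.41. All 3 DUSP6 probe sets were below 0, opposite in sign to DUSP5. DUSP1, a stress-induced phosphatase gene, read 2965 and 2556 (-0.21). Its 2 dimmer probe sets were at -0.57 and -0.50, so all 3 were below 0. DUSP4, a nuclear phosphatase gene, read 1013 and 1055 (0.06), and its 3 probe sets ran from -0.12 to 0.19.

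Sproutys and SPREDs restrain RAS and RAF activation. SPRY4 was the lowest feedback gene, at 727 with siLuc and 510 with siIFITM1 (-0.51), read by 1 probe set with shared probes. SPRY1 read 1168 and 1140 (-0.03), and SPRY2 read 662 and 657 (-0.01). The 3 Sprouty genes thus differed, with SPRY4 beyond the yardstick and the others within it. SPRED1 read 2514 and 2538 (0.01), with other probe sets at -0.06 and -0.30. SPRED2 read 2071 and 2233 (0.11), and a dimmer SPRED2 probe set was at -0.64, from 75.1 to 48.1. The second of these is under the filter floor, and with it raised to the floor that probe set was 1.31-fold lower.

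The RSK genes encode kinases activated directly by ERK, and all 3 main ratios were above 0. RPS6KA2, which encodes RSK3, read 70.3 with siLuc and 171 with siIFITM1, a ratio of 1.29. The main probe set was above the filter floor on both arrays. A second RPS6KA2 probe set read 39.2 and 87.2, with its siLuc signal under the floor. It passed the filter only through its siIFITM1 signal, so it gives no second reading of the direction. RPS6KA3, the RSK2 gene, read 1383 and 1893 (0.45) at its main probe set and 1064 and 1093 (0.04) at the other. RPS6KA1, the RSK1 gene, read 767 and 790 (0.04).

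**Figure D2:**
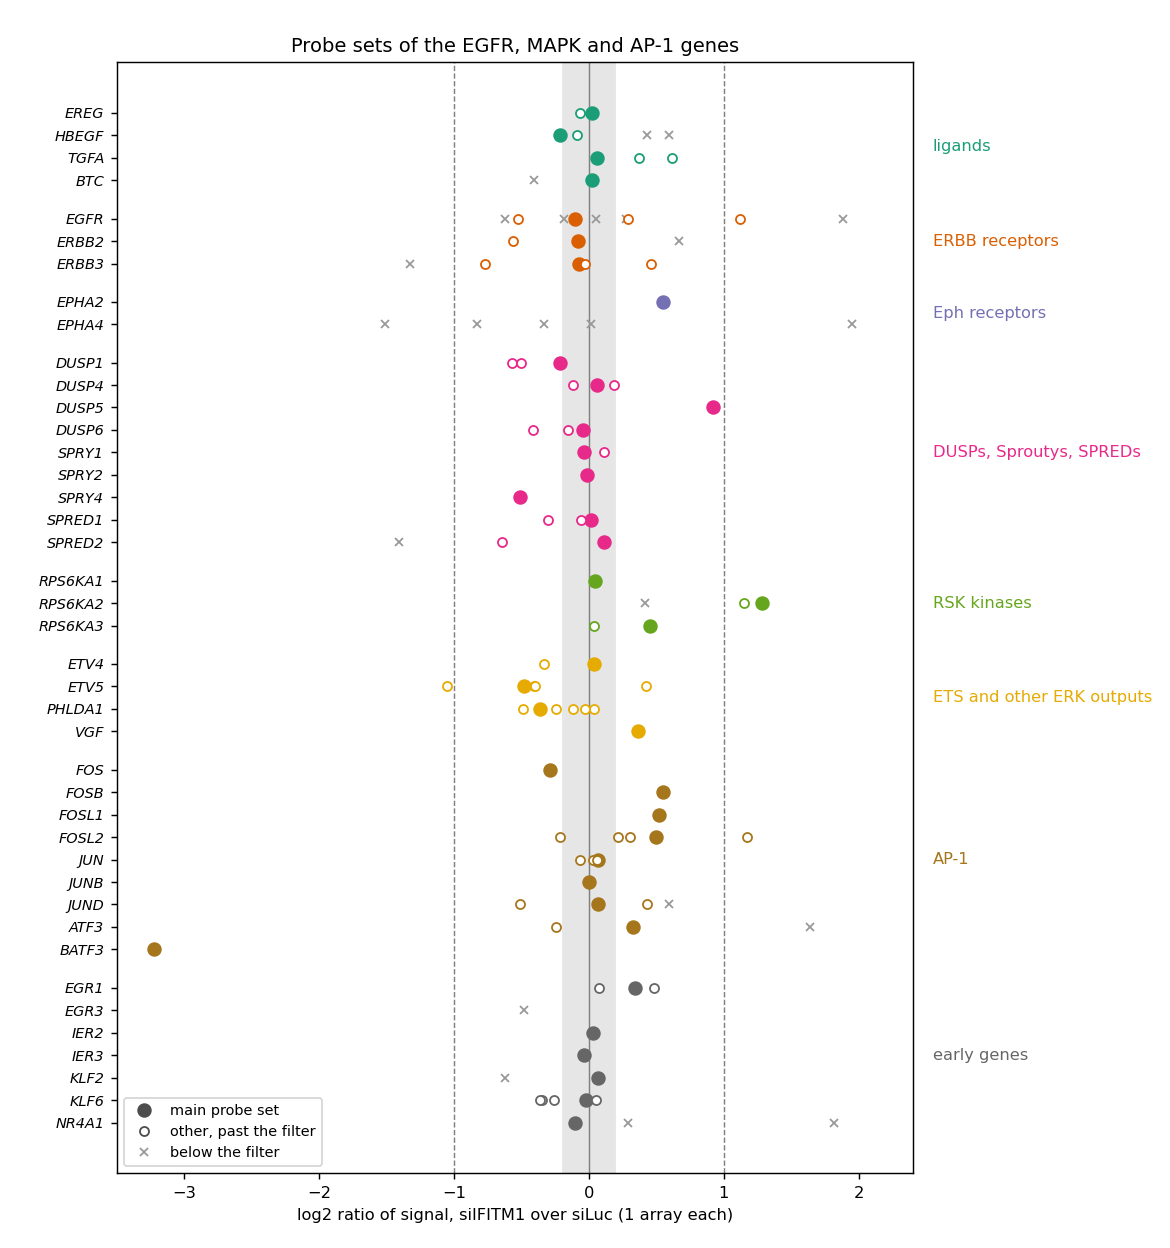
Log2 ratio of signal, siIFITM1 over siLuc, for each probe set of the 41 genes with a probe set, 1 array each. Filled points are main probe sets past the filter, open points are other probe sets past it, and crosses are probe sets below it. The grey band is the brighter yardstick of 0.193, and the dashed lines mark 2-fold. Most main probe sets lie in or near the band, while BATF3 is at -3.23, RPS6KA2 at 1.29 and DUSP5 at 0.92.

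Among the outputs of ERK, ETV5 and PHLDA1 were lower and their other probe sets mostly went the same way. ETV5, an ETS transcription factor gene of the PEA3 subfamily, read 1816 with siLuc and 1303 with siIFITM1 (-0.48). Of its 5 probe sets past the filter, 4 were below 0. The lowest of them, a brighter one, went from 624 to 301 (-1.05). The ETV5 probe set above 0 was dim, at 87.0 and 116 (0.42). PHLDA1, a pleckstrin homology-like gene induced by growth factors, read 6894 and 5372 (-0.36). Of its 6 probe sets 5 were below 0, with a range from -0.49 to 0.04. ETV4, the sister gene of ETV5, did not follow at its main probe set, which read 857 and 879 (0.04), while its second was at -0.33. VGF, a secreted neuropeptide precursor gene, was a dimmer gene and read 113 and 145 (0.36), within the dimmer yardstick.

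**Figure D3:**
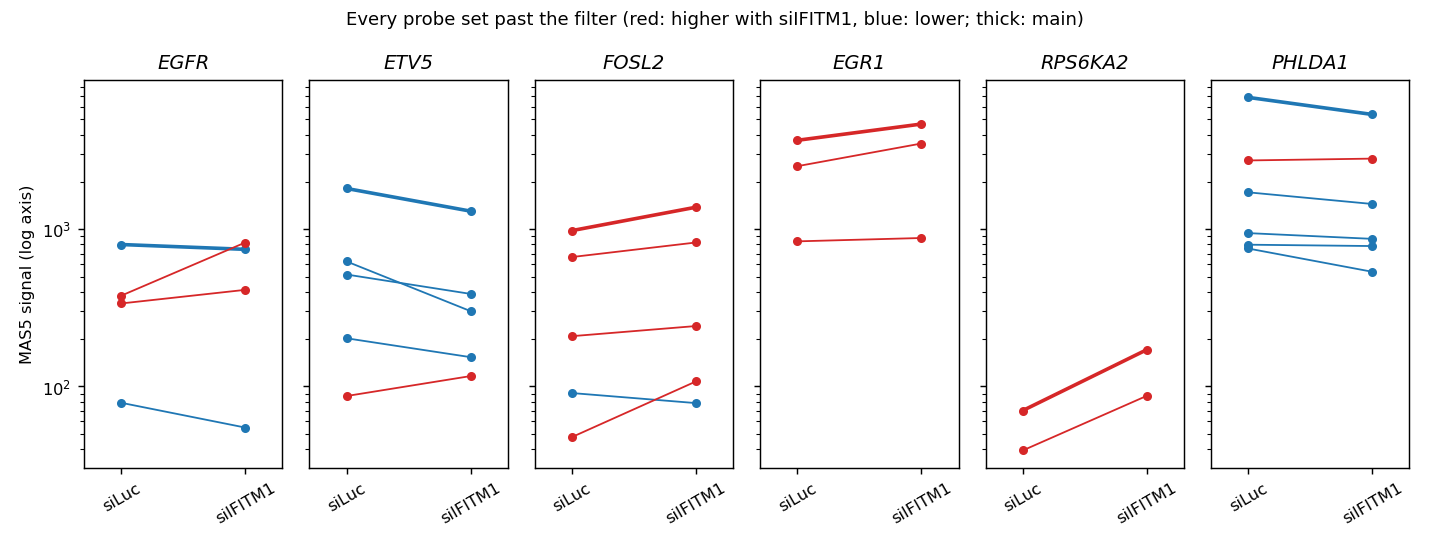
MAS5 signal (log axis) on the siLuc and siIFITM1 arrays for every probe set past the filter of 6 members, with thick lines for the main probe set, red for higher and blue for lower with siIFITM1. The EGFR lines cross, 4 of 5 ETV5 lines and 5 of 6 PHLDA1 lines go down, and all EGR1 and RPS6KA2 lines go up, the lower RPS6KA2 line from a siLuc signal under the filter floor.

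AP-1 is a dimer of FOS and JUN family proteins, and ATF3 and BATF3 are related bZIP proteins that pair with JUN. The FOS family split, with FOSL1, FOSL2 and FOSB higher and FOS lower, while the main JUN family values were near 0. FOSL1, the Fra-1 gene, read 497 with siLuc and 713 with siIFITM1 (0.52) at its 1 probe set. FOSL2, the Fra-2 gene, read 980 and 1381 (0.49), and its other brighter probe set was at 0.31. The dimmer FOSL2 probe sets above the filter floor on both arrays were at 0.21 and -0.21. The remaining FOSL2 probe set read 47.7 and 108 and passed the filter only through its siIFITM1 signal, so its direction is not counted. FOSB was a dimmer gene, just under the line for brighter ones, and read 305 and 447 (0.55), slightly beyond the dimmer yardstick of 0.496. FOS, the founding member, read 4021 and 3287 (-0.29).

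The 4 JUN probe sets ran from -0.07 to 0.07, and the main one read 4325 and 4524. JUNB read 1451 and 1447 (-0.0034), and JUND read 3813 and 3992 (0.07). The dimmer JUND probe sets went in opposite directions, at -0.51 and 0.43. ATF3, a stress-induced member, read 731 and 919 (0.33), but its dimmer probe set was at -0.24, so the ATF3 direction depended on the probe set.

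BATF3, a small bZIP protein gene known for dendritic cell development, had the lowest ratio of all members. Its signal was 179 with siLuc and 19.1 with siIFITM1, a ratio of -3.23. The siIFITM1 value was under the filter floor of 57.4, where values may not differ from background, so BATF3 passed the filter through its siLuc signal. With that value raised to the floor, BATF3 was 3.13-fold lower. It rested on 1 probe set. Of the 6 blood cell genes, CD79A, a B cell gene, went from 306 to 177 (-0.79). CD14, a monocyte gene, went from 232 to 185 (-0.33), and LYZ, the lysozyme gene, from 23964 to 20614 (-0.22). HBB, a globin gene, went the other way, from 93.1 to 141 (0.59), and PTPRC and CD3D were below the filter. The siLuc signal of LYZ lay within the range of the colonic epithelium genes past the filter, 2078 to 49185. Whether any of these genes relates to the BATF3 result was not tested. The AP-1 median of 0.07 was 0.07 also among the 7 brighter AP-1 genes.

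The early genes are induced within minutes of stimulation, and at 72 h most showed little difference, with a median of 0.0046 over 6 genes. EGR1, the zinc finger gene whose promoter is printed above with its pair of CArG boxes, was the exception. It read 3678 with siLuc and 4666 with siIFITM1 (0.34), and its other probe sets were at 0.48 and 0.07, so all 3 were above 0. IER2 read 6834 and 6985 (0.03), and IER3, a survival-related early gene, read 8511 and 8281 (-0.04). KLF6, a Krüppel-like factor gene, read 3507 and 3453 (-0.02) at its main probe set, but 4 of its 5 probe sets were below 0 and reached -0.36. KLF2 was a dimmer gene at 141 and 148 (0.06), as was the nuclear receptor gene NR4A1 at 142 and 132 (-0.10). EGR3 was below the filter.

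Several members had probe sets that disagreed in sign. Of 23 members with more than 1 probe set past the filter, 8 had all of them on one side of 0, which is 34.8% against 48.4% of all such genes. The 4 above 0 were EGR1, RPS6KA2, RPS6KA3 and TGFA, and the 4 below were DUSP1, DUSP6, ERBB2 and HBEGF. RPS6KA2 is in this count through the probe set that passed by its siIFITM1 signal alone. The number of probe sets per gene, which differs between these sets, was not matched. For 16 members only 1 probe set passed, so their direction has no second reading.

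The wider pathway was described by 3 further lists of genes. In the relay from EGFR to ERK, 31 of 41 listed genes passed, with a median of 0.03 and 17 above 0. None was 1.5-fold higher, against 4.18% of all genes. NRG1, a ligand gene of ERBB3, was the 1 gene past the 1.5-fold and 2-fold lines in the lower direction, against 7.34% and 2.01%. It went from 94.6 to 35.1, under the floor, and passed the filter only through its siLuc signal. With the second value raised to the floor it was 1.65-fold lower, so the 2-fold call was lost. By more than the yardstick 7 of the 31 genes were higher and 4 lower, against 2066 and 2434 of all 12225 genes that passed. Besides NRG1, the genes the naming rule took were higher. CBL, a ubiquitin ligase gene that removes active EGFR, read 697 and 1022 (0.55), with all 4 of its probe sets above 0. ERRFI1, an ERBB inhibitor gene, was at 0.39 and RPS6KA4, the MSK2 gene, at 0.40.

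In the list of ERK-responsive and early genes outside the set, 31 of 35 passed, with a median of 0.0047 and 16 above 0. The 3 genes 1.5-fold higher were CCN1, a matricellular gene (0.87), MMP7, the matrilysin gene (0.85), and PLAU, the urokinase gene (0.76), where the background was 4.18% of all genes and 1.86% of brighter genes. The 2 genes 1.5-fold lower were ETV1, an ETS factor gene that went from 131 to 63.0 (-1.06), and ETS2, from 5009 to 3183 (-0.65). The background was 7.34% of all genes and 1.77% of brighter genes. ETV1 was also 2-fold lower, against 2.01% of all genes and 5.39% of dimmer genes. It was a dimmer gene with 1 probe set past the filter, and its siIFITM1 signal was just above the floor of 57.4. The 3 ETS2 probe sets past the filter ran from -0.76 to 0.09. ETS2 was named because it completed the count of genes 1.5-fold lower, after its value was seen.

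Of the other bZIP genes 15 of 22 passed, all of them brighter, with a median of -0.12 against 0.0031 over all brighter genes. Of these 12 were below 0, where 49.5% of all brighter genes were, and none was 1.5-fold apart in either direction. Beyond the brighter yardstick 4 were lower, the genes taken by the naming rule, MAFG (-0.35), NFE2L3 (-0.29), ATF4 (-0.24) and ATF2 (-0.24). Of all brighter genes 19.2% were lower and 20.2% higher by more than this yardstick. Beyond it 2 of the listed genes were higher, ATF5 (0.42), the gene farthest from 0, and CREM (0.32). The rule left out both because their probe sets disagreed in sign, with 2 of 4 above 0 for ATF5 and 2 of 5 for CREM, and they were named after their values were seen.

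**Figure D4:**
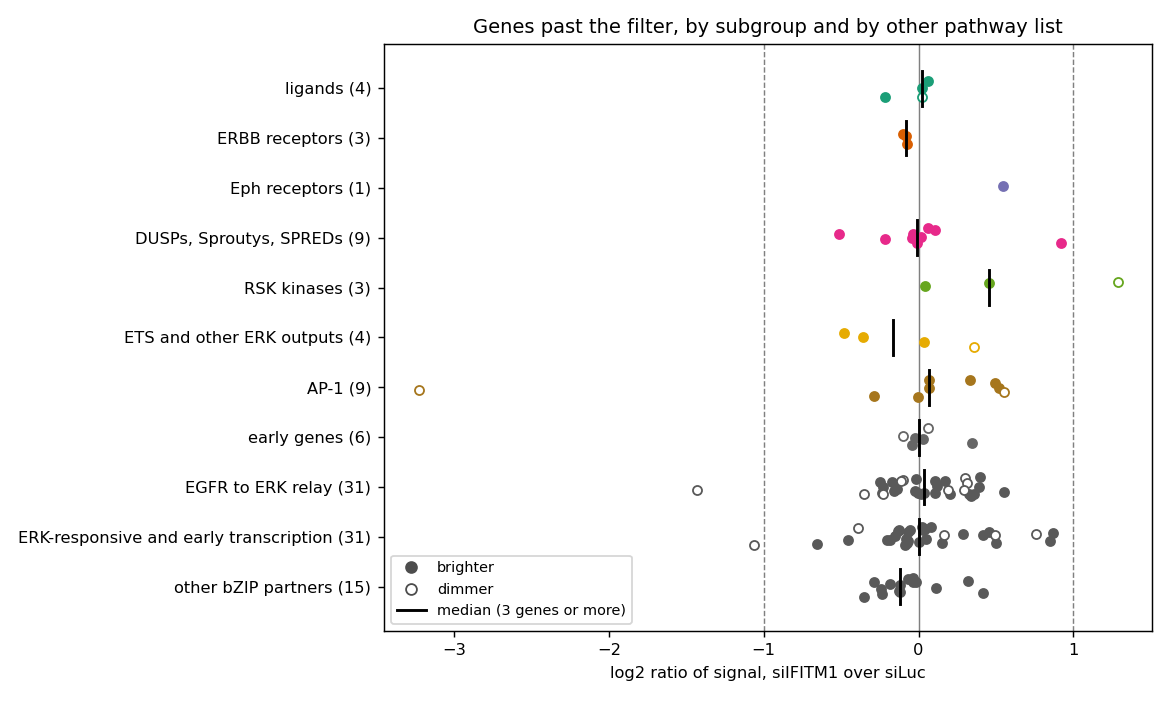
Log2 ratio of signal, siIFITM1 over siLuc, of the main probe set of each gene that passed the filter, by role for the members and by list for other pathway genes (number of genes in brackets), with filled points for brighter and open points for dimmer genes. Black bars are medians of 3 genes or more and dashed lines mark 2-fold. The medians lie between -0.16 and 0.07 except for the 3 RSK genes at 0.45.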

How the data were processed

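The authors deposited 1 intensity per probe set and array, on a linear scale and all above 0. Signals came from MAS5 (version not given in the sources used here), as stated per the submitters' processing notes. The mean signal without the outer 2% at each end was 500.1 on both arrays, so the arrays share a scale. Detection calls were not used.

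Log2 ratios were computed from the signals as deposited, with no pseudocount and no further scaling. Probe sets naming 1 gene (41091 of 54613 that are not controls) were used, with symbols updated through Entrez identifiers in a RefSeq table of GRCh38.p14, where 41037 matched. The text gives every member. From each further list it gives up to 4 genes with the largest ratio whose probe sets past the filter share a sign. ETS2, ATF5, CREM and the genes of the closing observations were chosen outside this rule, after their values were seen. Members and lists were chosen with earlier results of these data known. The calculation was tested on simulated data. Alternatives were other scalings, a pseudocount of 32, a floor, other filters, probe set choices and a 1.5-fold line. The number of arrays, 1 per siRNA, limits the precision. Python 3.11.15, numpy 2.4.6, pandas 2.3.3, statsmodels 0.14.6 (loess, span 0.3) and matplotlib 3.10.9 were used.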

Additional observations from a re-analysis of the deposited data

How the results depend on the processing

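The number of members at least 2-fold higher was 1. It was 2 at a 1.5-fold line (RPS6KA2 and DUSP5) and 2 without the shared-probe sets, those with the ID suffix _s_at or _x_at (RPS6KA2 and EGFR). It was 0 with a pseudocount of 32, with the filter at the 75th percentile and with the mean over probe sets. RPS6KA2 was at 0.99 with the pseudocount, and under the other settings with a count of 0 it dropped out at the filter. The number at least 2-fold lower was 1. It was 0 with the filter at the 75th percentile, where BATF3 dropped out, and 2 without shared-probe sets (BATF3 and ETV5). The median of ETV4, ETV5, PHLDA1 and VGF, -0.16, was -0.36 with the filter at the 75th percentile and without shared-probe sets, since VGF then dropped out. Of 330 member ratios under alternatives, 319 moved by less than the yardstick or not at all and 11, in 9 members, by more. Many could not move, because a change of filter leaves a ratio as it is. A choice of probe sets likewise leaves a member with a single unshared probe set as it is. Members that dropped out under a setting are not among the 330, so the count does not measure stability. EGFR was at 1.12 and ETV5 at -1.05 without shared-probe sets, and ATF3 at -0.24, where the remaining ATF3 probe set has an ID ending in _a_at, which marks probes common to several transcripts of the gene. BATF3 was at -2.05 with the pseudocount and -1.64 with the floor. The mean over probe sets also takes in probe sets below the filter. It put SPRED2 at -0.65, DUSP1 at -0.43, ERBB3 at -0.35, TGFA at 0.35, ATF3 at 0.58 and RPS6KA3 at 0.25. For ATF3, SPRED2 and ERBB3 it includes a probe set below the filter, at 1.64, -1.41 and -1.33 respectively. The ATF3 probe sets past the filter were at 0.33 and -0.24. The means of ATF3, SPRED2 and ERBB3 are therefore not read as shifts of these genes. Median centring, quantile normalization and loess moved the median of all genes by under 0.1 and kept both counts at 1. Signals near the floor limit RPS6KA2, BATF3, NRG1 and ETV1. No paired analysis was possible because each siRNA had 1 array.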

Other observations

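In the list of ERK-responsive and early genes outside the set, 7 of the 31 genes that passed were higher by more than the yardstick and 4 lower. Of all 12225 genes that passed, 2066 were higher and 2434 lower by more than it. Some of the listed genes beyond the yardstick were named after their values were seen, so they give no count or direction for the list. ZFP36, which encodes an mRNA decay factor, went from 3272 to 4626 (0.50) and the cytokine gene LIF from 378 to 518 (0.45), each at 1 probe set. MCL1 (0.42) and MAFF (0.29) were also higher at their main probe sets. Their probe sets disagreed in sign, with 2 of 6 above 0 for MCL1 and 1 of 2 for MAFF. CD44, the hyaluronan receptor gene, went from 3302 to 2405 (-0.46). Of its 9 probe sets 7 were below 0, and they ran from -0.56 to 0.34. ERF, an ETS repressor gene, was at -0.20 at its main probe set and -0.05 at the other.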
